A study of Mus musculus with 6 samples.

Results

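The Notch pathway was followed in mouse kidney fibroblasts through 10 genes, picked by name: the receptors Notch1, Notch2, Notch3 and Notch4, the ligands Jag1, Jag2 and Dll1, and the target genes Hes1, Hey1 and Heyl. Each symbol matched 1 of the 34745 genes in the deposited table. The study asked what Th17 cells, the interleukin-17-producing class of helper T cells, do to fibroblasts. It sequenced RNA from wild-type (WT) primary mouse renal fibroblasts in 2 groups of 3 libraries. The group "alone" had no treatment, and the group "with Th17" had shared its medium for 24 h with Th17 cells held above it on a porous insert, of which only the fibroblasts were collected. The Th17 cells had been derived in vitro from mouse spleen CD4+ T cells with interleukins and an antibody to interferon gamma. The study kept Balb/c mice, but the sources used here do not tie that strain to the donors of these cells. The age and sex of the donors, the number of animals behind a library and the use of an empty insert in the lone cultures were not given in the sources used here. SD, SE and p therefore describe the spread between these libraries, which may be technical.

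Notch receptors are membrane proteins that read signals from neighbouring cells. A Jagged or Delta-like ligand on the next cell pulls on the receptor, an ADAM protease and then gamma-secretase cut it, and the freed intracellular part enters the nucleus. There it joins the DNA-binding protein RBPJ and Mastermind coactivators and switches on HES and HEY genes, whose products are transcriptional repressors. In the kidney the pathway patterns the nephron during development, and it is studied in tubular injury and in fibrosis. 

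The total count was 12050529 to 13209581 fragments per library, so a floor of 3 fragments stood at 0.223 to 0.254 CPM (the count relative to the library total after TMM scaling). Fibroblast markers were abundant in every library, with a summed level of 34157 to 36045 CPM alone and 14263 to 15969 CPM with Th17. Of those markers 9 of the 10 tested were lower and 1, Dcn, was higher with Th17, while Dpt was at 0 counts with Th17. Macrophage markers moved in the same direction as most Notch genes, and all 5 tested of 11 were lower. Their summed level was 48.0 to 50.5 CPM alone and 8.22 to 10.4 CPM with Th17. Adgre1 (71, 47 and 55 counts alone) and Ptprc (14, 12 and 11 alone) were at 0 counts in each cocultured library. C1qa, C1qb and Tyrobp were at 0 there too, but they were untested and also had 0 counts in a lone library. Mural cell markers were lower for 6 of 7 tested genes of 11 (summed 2414 to 2523 CPM alone, 1052 to 1228 CPM with Th17). Higd1b was at 0 throughout, and Kcnj8 had 0, 3 and 4 counts alone and 0 with Th17. Endothelial markers were scarce (9.96 to 10.3 CPM alone, 5.18 to 6.21 CPM with Th17, 1 of 3 tested lower, namely Kdr, and Tie1, Emcn and Erg at 0 throughout), as were epithelial markers (19.2 to 21.1 CPM alone, 3.58 to 4.56 CPM with Th17, 2 of 3 tested lower, and Umod and Slc34a1 at 0 throughout). T cell markers summed to 4.27 to 5.53 CPM alone and 2.21 to 2.67 CPM with Th17, 1 of 1 tested was lower, and Cd3d, Cd2, Il17a, Il17f and Ccr6 were at 0 throughout. Over all tested genes 17.1% were called as higher and 20% as lower, by the rule given below. The marker lists were not compared with these shares by a test, and lists with only 1 or 3 tested genes are too short for it. The part of these cell types in the Notch results was not tested. In bulk RNA fewer cells of a type cannot be told apart from less RNA per cell.

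The Notch pathway genes did not move as a block. With Th17 cells Notch2 rose, while Notch1, Notch3, Notch4, Jag1 and Hes1 fell, and no difference was detected for Dll1. These 7 genes had enough counts to test, and Jag2, Hey1 and Heyl did not. A gene was called at an adjusted p below 0.05 by the quasi-likelihood test of edgeR, adjusted by Benjamini-Hochberg over the 13088 genes tested. By this rule 37.1% of all tested genes were called, 17.1% as higher and 20% as lower. With library size as the only scaling the shares were 22.2% higher and 17.4% lower, and the calls of the 7 Notch genes were as with TMM. The counts among the 7 Notch genes were 1 higher and 5 lower. Their median log2 fold change was −0.72, beside 0.004 over all genes tested. Lone and cocultured libraries had no overlap in CPM for 6 of the 7 genes, and none for 50.4% of all tested genes.

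**Figure D1:**
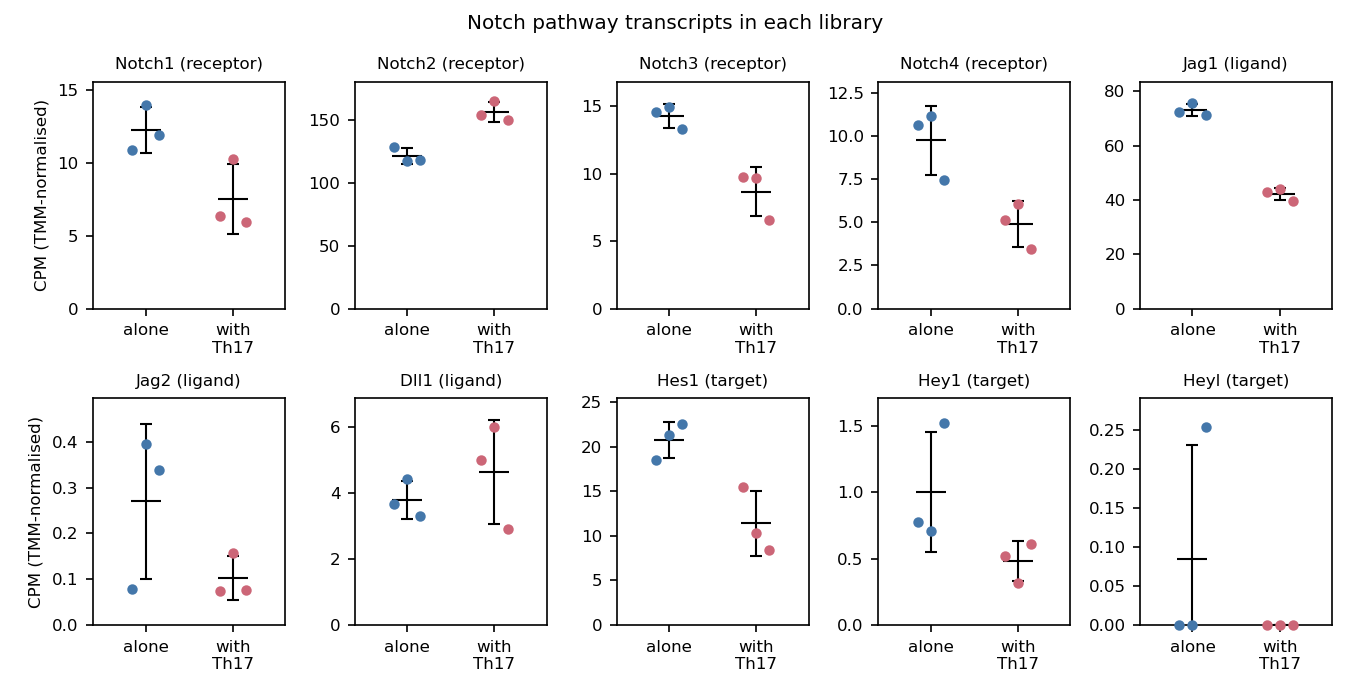
Level of each of the 10 Notch pathway genes in CPM (linear axis from 0, a separate scale for each gene) in 3 libraries of fibroblasts alone (blue points) and 3 with Th17 cells (red points), with black bars for the mean ± SD. Notch2 sits higher with Th17, at 150 to 164 CPM against 117 to 129, whereas the groups overlap for Jag2, Dll1 and Heyl.

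Among the receptors, Notch2 was by far the most abundant. Notch2 (ENSMUSG00000027878, GRCm38 chromosome 3, 98013527 to 98150361, plus strand, protein-coding) had 1655, 1483 and 1397 counts alone and 2067, 2092 and 1964 counts with Th17. In CPM these were 129, 117 and 118 alone and 154, 164 and 150 with Th17, so each cocultured library lay above each lone library. The mean rose from 121 ± 6.27 CPM alone to 156 ± 7.69 CPM with Th17 (SD, n = 3 per group), a 1.29-fold increase (edgeR log2 ratio 0.36 with SE 0.0674; adjusted p = 0.00264).

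The other receptors fell. Notch3, a receptor best known from vascular smooth muscle cells and pericytes (ENSMUSG00000038146, chromosome 17, 32120820 to 32166880, minus strand), had 14.6, 14.9 and 13.3 CPM alone and 9.75, 9.67 and 6.55 CPM with Th17. The groups did not overlap, and the mean went from 14.3 ± 0.876 CPM alone to 8.66 ± 1.83 CPM with Th17 (SD, n = 3 per group), and edgeR gave a log2 fold change of −0.72 (SE 0.165; adjusted p = 0.00785). The mural cell markers were lower too, in 6 of 7 tested, beside 20% lower over all tested genes. The exception, Cspg4, was not called by edgeR, with a log2 fold change of 0.17. Among the untested mural genes, Myocd had 5, 7 and 3 counts alone and 8, 9 and 16 with Th17, without overlap in CPM. Abcc9 had 6, 0 and 1 counts alone and 0, 2 and 1 with Th17, and Kcnj8 is given above. The part of the mural markers in the Notch3 result was not tested. Notch4, a receptor best known from endothelium (ENSMUSG00000015468, chromosome 17, 34564268 to 34588503, plus strand), had 10.6, 11.1 and 7.45 CPM alone and 5.13, 6.05 and 3.43 CPM with Th17. Here too the groups did not overlap, and the lowest lone library was replicate 3. Notch4 went from 9.75 ± 2.01 CPM alone to 4.87 ± 1.33 CPM with Th17 (SD, n = 3 per group), and edgeR gave a log2 fold change of −1.0 (SE 0.235; adjusted p = 0.00891).

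Among endothelial markers, Kdr had 65, 74 and 68 counts alone and 2, 1 and 2 counts with Th17. The other 2 tested, Pecam1 and Egfl7, did not fall and were not called by edgeR, with log2 fold changes of 0.1 and 0.17. The part of these markers in the Notch4 result was not tested. Notch4 stood at the study's fold change limit of 2. Its estimate was 2.003-fold lower, which made it the only Notch gene of the 7 past an adjusted p of 0.05 and a fold change above 2, a rule met by 3.87% of tested genes as higher and 7.78% as lower. Under 17 alternatives the estimate stayed past the limit in 8 and not in 9, so its place on either side of 2 is not fixed by these data. It was 1.74-fold without cocultured replicate 3 and 2.27-fold without cocultured replicate 2, and its adjusted p stayed below 0.05 under the 17 alternatives.

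Notch1, the receptor with the broadest developmental roles (ENSMUSG00000026923, chromosome 2, 26457903 to 26516663, minus strand), gave the least certain decrease. It had 140, 177 and 141 counts alone and 85, 131 and 78 counts with Th17. The cocultured value of replicate 2, 10.3 CPM, lay just under the lowest lone value, 10.9 CPM, and the other cocultured libraries were at 6.33 and 5.94 CPM. The mean went from 12.3 ± 1.59 CPM alone to 7.52 ± 2.41 CPM with Th17 (SD, n = 3 per group), and edgeR gave a log2 fold change of −0.71 (SE 0.216; adjusted p = 0.0297). The call was lost without lone replicate 2 (adjusted p = 0.1), lone replicate 3 (0.0591), cocultured replicate 1 (0.0915) or cocultured replicate 3 (0.0779), by the same test, with log2 fold changes from −0.73 to −0.56.

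**Figure D2:**
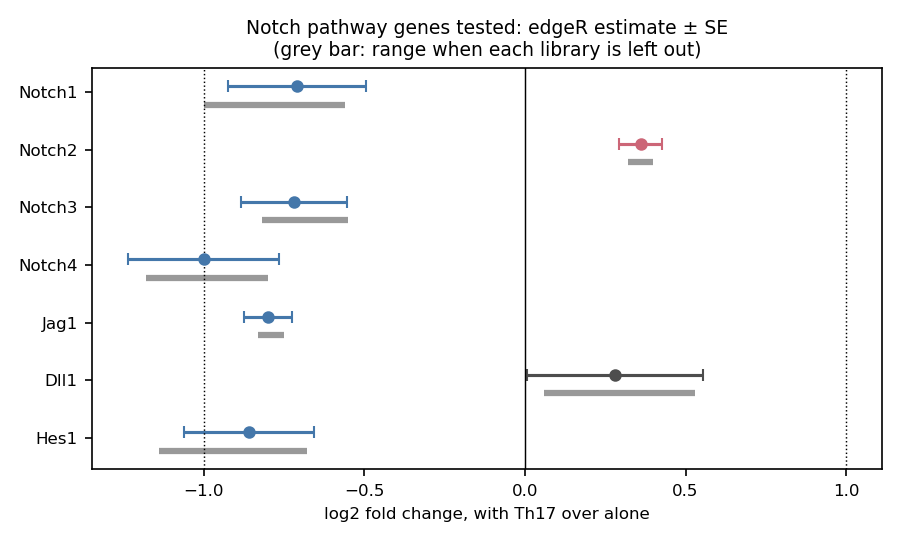
Log2 fold change (with Th17 over alone) of the 7 Notch pathway genes tested, with the edgeR estimate ± SE as a point and error bar (red higher, blue lower, dark grey not past an adjusted p of 0.05), grey bars for the range over 6 fits that each left out 1 library, and dotted lines at a fold change of 2. Notch2 and Dll1 lie above 0, and the estimate of Notch4 lies on the dotted line at −1.

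Sequence upstream of the start site is shown for 4 genes that moved in opposite directions, Notch2 upward and Notch3, Notch4 and Jag1 downward, to set their promoters side by side. The windows come from RefSeq (GRCm38.p6), which held entries for 7 of the 10 genes, the others being Hes1, Hey1 and Heyl. Bases inside the annotated gene were left out, and each sequence is written 5′ to 3′ on the gene's own strand. Capitals mark the N-box, CACNAG on either strand (CTNGTG in reverse), a site that HES proteins can bind.
Notch2, chr3:98013288-98013526, plus strand: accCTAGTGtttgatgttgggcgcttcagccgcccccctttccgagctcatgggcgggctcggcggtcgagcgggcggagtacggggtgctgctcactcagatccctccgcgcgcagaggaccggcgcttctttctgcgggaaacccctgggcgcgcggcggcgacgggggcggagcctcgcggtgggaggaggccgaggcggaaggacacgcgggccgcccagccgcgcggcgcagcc
Notch3, chr17:32166891-32167140, minus strand: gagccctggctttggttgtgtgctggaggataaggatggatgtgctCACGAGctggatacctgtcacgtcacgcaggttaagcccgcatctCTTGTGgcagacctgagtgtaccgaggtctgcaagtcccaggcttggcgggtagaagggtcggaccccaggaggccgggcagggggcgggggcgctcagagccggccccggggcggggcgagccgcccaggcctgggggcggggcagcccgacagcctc
Notch4, chr17:34564045-34564267, plus strand: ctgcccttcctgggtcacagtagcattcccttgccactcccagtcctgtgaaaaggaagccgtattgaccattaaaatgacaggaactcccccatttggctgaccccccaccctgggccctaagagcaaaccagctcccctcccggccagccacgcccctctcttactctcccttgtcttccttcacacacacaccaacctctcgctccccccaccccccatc
Jag1, chr2:137116645-137116770, minus strand: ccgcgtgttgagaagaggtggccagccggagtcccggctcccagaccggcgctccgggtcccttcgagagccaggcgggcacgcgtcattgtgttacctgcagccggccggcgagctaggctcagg

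The N-box occurred once in the printed stretch of Notch2 and in 2 places in that of Notch3, and it did not occur in those of Notch4 and Jag1. Notch1, also called lower, has no printed stretch because its window lies inside the annotated gene, and that window held 3 N-box matches. Of the windows of genes not printed, 1 of Dll1 held 1 match and that of Jag2 held none. The N-box is a common string, found in 42.5% of the 32851 RefSeq windows of 300 bases (250 before the start and 50 after). The core bound by RBPJ, TGGGAA on either strand (TTCCCA in reverse), was in 25.6% of all windows, and the E-box CACGTG in 7.15%. Neither string was in any of the 8 windows of the 7 genes, where Dll1 has 2. Each match or lack of a match describes letters in this window and is not evidence of binding.

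Levels of different genes were compared per unit of length, in FPKM (fragments per kilobase of gene and per library total) as deposited. In lone fibroblasts the order by mean FPKM (± SD, n = 3) began with Notch2 (10.6 ± 0.522), Jag1 (10.5 ± 0.303), Hes1 (7.09 ± 0.724) and Notch3 (1.73 ± 0.102). Next came Notch4 (0.781 ± 0.159), Notch1 (0.757 ± 0.0983) and Dll1 (0.613 ± 0.0925). Last were Hey1 (0.209 ± 0.0947), Jag2 (0.0653 ± 0.0409) and Heyl (0.0157 ± 0.0271). In this order the values of Notch2 and Jag1 overlapped, as did those of Notch4 and Notch1, Notch1 and Dll1, and Jag2 and Heyl. With Th17 cells Notch2 (14.2 ± 0.61 FPKM) and Jag1 (6.31 ± 0.294 FPKM) no longer overlapped. In that group the levels of Notch3 and Dll1 overlapped, as did those of Dll1 and Notch1 and those of Notch1 and Notch4.

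The make-up of the receptor transcripts moved toward Notch2. Its share of the summed receptor FPKM was 77.3, 74.1 and 77.8% alone and 87.1, 86.2 and 90.1% with Th17, with no overlap between the groups. The share of Notch3 went from 12.5 ± 0.552% to 6.75 ± 1.13%, that of Notch4 from 5.62 ± 1.01% to 2.49 ± 0.532% and that of Notch1 from 5.48 ± 0.82% to 2.96 ± 0.743% (SD, n = 3 each). The summed receptor level was 13.9 ± 0.586 FPKM alone and 16.2 ± 1.03 FPKM with Th17. Shares within a library do not depend on how libraries are scaled to each other, and they were not tested.

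**Figure D3:**
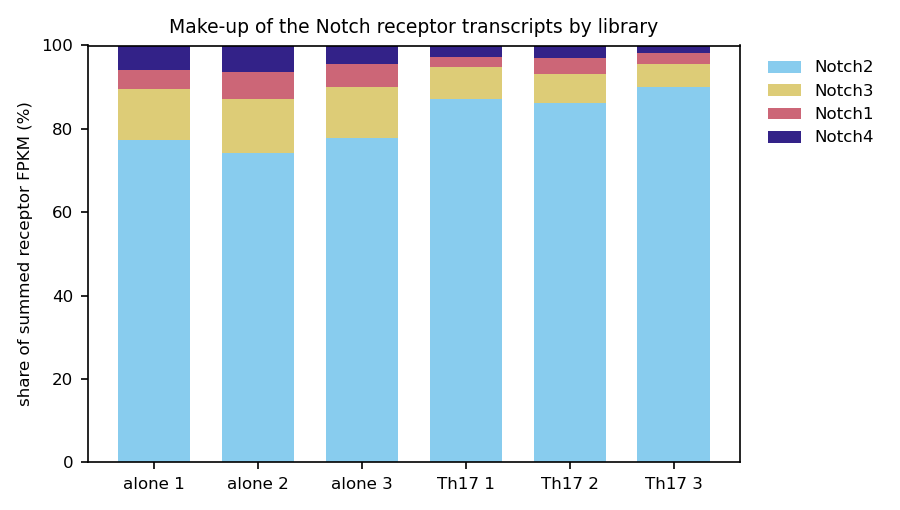
Share of each Notch receptor in the summed FPKM of the 4 receptors (percent, stacked from 0 to 100) in each of the 6 libraries. Notch2 takes 74.1 to 77.8% in the lone libraries and 86.2 to 90.1% in the cocultured ones.

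Of the ligands, Jag1 showed the clearest change. Jag1 encodes Jagged1, a membrane ligand expressed by many stromal cells (ENSMUSG00000027276, chromosome 2, 137081456 to 137116644, minus strand). It had 933, 956 and 843 counts alone and 575, 559 and 521 counts with Th17. In CPM, the lone libraries were at 72.5, 75.6 and 71.3 and the cocultured libraries at 42.8, 43.9 and 39.7, far apart relative to the spread within each group. The mean fell from 73.1 ± 2.2 CPM alone to 42.1 ± 2.21 CPM with Th17 (SD, n = 3 per group), and edgeR gave a log2 fold change of −0.80 (SE 0.0733; adjusted p = 3.6e-05), a 1.74-fold decrease. No other Notch gene of the 7 had an adjusted p this low.

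Dll1, a Delta-like ligand (ENSMUSG00000014773, chromosome 17, 15367354 to 15376872, minus strand), had 47, 56 and 39 counts alone and 67, 76 and 38 counts with Th17. In CPM, cocultured replicate 3 (2.89) lay below all lone libraries (3.30 to 4.43) and the other cocultured libraries lay above them (4.99 and 5.98). The log2 fold change was 0.28 (edgeR SE 0.273; adjusted p = 0.459), and without cocultured replicate 3 it was 0.53 (adjusted p = 0.0782). Jag2, the second Jagged ligand (ENSMUSG00000002799, chromosome 12, 112908590 to 112929495, minus strand), had 1, 5 and 4 counts alone and 1, 2 and 1 counts with Th17. It did not pass the filter on low counts, and without that filter its log2 fold change was −1.32 (edgeR SE 0.989; adjusted p = 0.392). Jag1 accounted for 93.9 ± 0.787% of the summed FPKM of the 3 ligands alone and 88.8 ± 2.99% with Th17 (SD, n = 3 each). That sum was 11.2 ± 0.416 FPKM alone and 7.12 ± 0.563 FPKM with Th17.

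Hes1, a repressor of the HES family and the best known direct target of the pathway, fell. Hes1 (ENSMUSG00000022528, chromosome 16, 30064384 to 30067796, plus strand) had 238, 269 and 266 counts alone and 208, 131 and 111 counts with Th17. In CPM the lone libraries were at 18.5, 21.3 and 22.5 and the cocultured ones at 15.5, 10.3 and 8.45, so the groups did not overlap but replicate 1 of the cocultured group lay near the lone libraries. The mean decreased from 20.8 ± 2.06 CPM alone to 11.4 ± 3.64 CPM with Th17 (SD, n = 3 per group), and edgeR gave a log2 fold change of −0.86 (SE 0.203; adjusted p = 0.00929). Without cocultured replicate 1 the log2 fold change was −1.14 and without cocultured replicate 3 it was −0.68, both with an adjusted p below 0.05. Hes1 responds to other signals as well as to Notch.

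The HEY genes were near or under the limit of this depth. Hey1, a repressor related to the HES family (ENSMUSG00000040289, chromosome 3, 8663359 to 8667256, minus strand), had 10, 9 and 18 counts alone and 7, 4 and 8 counts with Th17. The CPM values did not overlap, at 0.712 to 1.52 alone and 0.314 to 0.609 with Th17, but the gene did not pass the filter on low counts. Without the filter its log2 fold change was −1.03 (edgeR SE 0.516; adjusted p = 0.178). Heyl, the third HEY gene (ENSMUSG00000032744, chromosome 4, 123233556 to 123249875, plus strand), had 0, 0 and 3 counts alone and 0 counts in each cocultured library. Both groups were at or under the floor of 3 counts, so no fold change is given and a difference was not detectable at this depth.

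Cocultured replicate 3 gave the lowest CPM of its group for all 7 tested Notch genes, including Notch2, and it was the lowest of its group for 39.0% of all tested genes. Without that library Notch2, Notch3, Notch4, Jag1 and Hes1 kept their direction and call, and Notch1 lost its call. Several of the genes overlap annotated neighbours, and whether counting used the strand was not given. The neighbours on the opposite strand had few counts, at 3 to 9 for 0610009E02Rik and 0 to 1 for Gm13568 beside Notch1, 1 to 8 for Gm17276 beside Notch3 and 0 to 10 for A930024N18Rik beside Dll1. The neighbours within Notch2 on its own strand, Gm42819 and Gm42820, had 1 to 3 and 3 to 8 counts. The count of Dll1 is the most exposed to such sharing.

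The rest of the pathway was read from a list of 55 further genes, of which 44 were tested, 7 were higher and 6 lower. Their median log2 fold change was 0.04. The called shares stand beside 17.1% higher and 20% lower over all tested genes, and with library size only 13 of the list were higher and 6 lower. Of the 7 higher calls 6 were among the 14 genes of the nuclear complex, which held 1 of the 6 lower calls, and the lists were not compared by a test. Rbpj, which encodes the protein that carries Notch activity to DNA and acts as a repressor when Notch is inactive, had 236, 215 and 213 CPM alone and 377, 386 and 364 CPM with Th17. The groups were far apart, and Rbpj rose from 221 ± 12.6 CPM alone to 376 ± 11 CPM with Th17 (SD, n = 3 per group). For Rbpj edgeR gave a log2 fold change of 0.76 (SE 0.0623, adjusted p = 1.56e-05).

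Corepressor genes of that complex were among those that rose. Tle2, a Groucho-type corepressor, went from 4.1 ± 1.32 CPM alone to 8.61 ± 0.351 CPM with Th17 (SD, n = 3 per group). For Tle2 edgeR gave a log2 fold change of 1.07 (SE 0.227, adjusted p = 0.00541). Without lone replicate 2 the estimate for Tle2 was 0.83 (edgeR adjusted p = 0.00766), short of a fold change of 2. Its relative Tle4 had a log2 fold change of 0.96 (edgeR SE 0.133; adjusted p = 0.00046) and Spen 0.52 (edgeR SE 0.113; adjusted p = 0.006). Maml3, a Mastermind coactivator, also rose, by 0.52 on the log2 scale (edgeR SE 0.134; adjusted p = 0.0134), and its call was lost without lone replicate 2 (adjusted p = 0.0534). Maml1 and Maml2 had log2 fold changes of −0.07 and 0.01 and were not called. Tle1 and Tle3, at 0.17 and 0.06, were not called either, so the Groucho family did not move uniformly. Snw1, the most abundant gene of this list per length, had a log2 fold change of 0.03 (edgeR SE 0.0813; adjusted p = 0.797).

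Kat2b, an acetyltransferase that serves as a coactivator, was the 1 gene of the nuclear complex called as lower. It had 1007, 954 and 891 counts alone and 330, 260 and 298 counts with Th17. The level fell from 76.4 ± 1.62 CPM alone to 22.6 ± 2.06 CPM with Th17 (SD, n = 3 per group), and edgeR gave a log2 fold change of −1.76 (SE 0.0863; adjusted p = 5.71e-07), a 3.38-fold decrease. Ep300, another acetyltransferase, had a log2 fold change of 0.27 (edgeR SE 0.101; adjusted p = 0.0671).

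**Figure D4:**
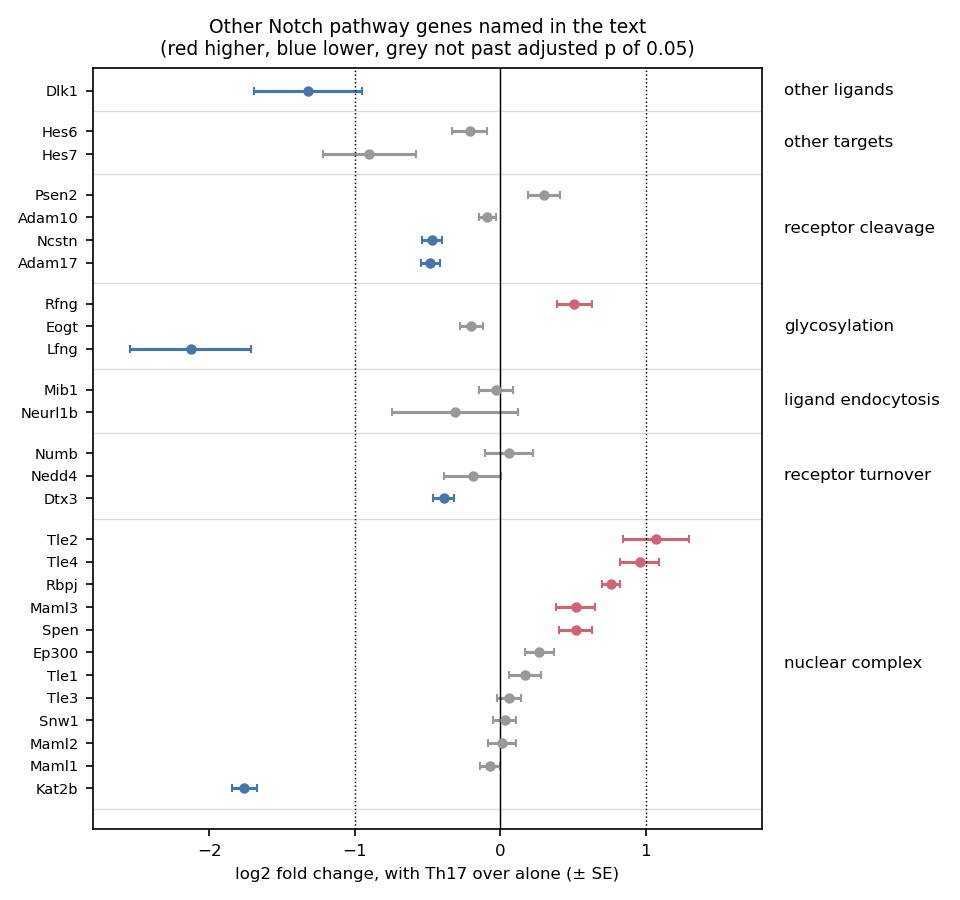
Log2 fold change (with Th17 over alone) ± SE of 27 other Notch pathway genes named here, grouped by role, with red for higher, blue for lower and grey for genes not past an adjusted p of 0.05, and dotted lines at a fold change of 2. Of the 12 nuclear complex genes shown 5 are red and Kat2b is blue, and Lfng lies furthest to the left.

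Genes that modify or cut the receptor changed in part. Of 8 cleavage genes 2 fell and none rose. Adam17, a protease that can make the first cut, fell from 111 ± 1.38 CPM alone to 79.9 ± 4.8 CPM with Th17 (SD, n = 3 per group), and edgeR gave a log2 fold change of −0.48 (SE 0.0669; adjusted p = 0.00051). Ncstn, the nicastrin subunit of gamma-secretase, had a log2 fold change of −0.47 (edgeR SE 0.0701; adjusted p = 0.000709). Adam10 (−0.09) and Psen2 (0.30, adjusted p = 0.0678), a protease and a catalytic subunit of gamma-secretase, were not called by edgeR.

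Among 8 glycosylation genes, 7 were tested, with 1 higher and 1 lower, both Fringe genes whose products add a sugar that alters which ligands a receptor answers. Lfng had 17, 14 and 16 counts alone and 2, 4 and 5 counts with Th17 (edgeR log2 ratio −2.13 with SE 0.419; adjusted p = 0.00355). The groups did not overlap, at 1.11 to 1.35 CPM alone and 0.149 to 0.381 CPM with Th17. This call rested on few counts, and the lowest cocultured value lay under the floor of 3 counts. Rfng rose by 0.51 on the log2 scale (edgeR SE 0.121; adjusted p = 0.0094), and Mfng had 0 counts in every library. Eogt, the most abundant gene of this list per length, had a log2 fold change of −0.20 (edgeR SE 0.0798; adjusted p = 0.0849).

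Ligand endocytosis genes, which encode ubiquitin ligases that ligand-sending cells need, showed no call among 4 tested. Over all tested genes 37.1% were called. Mib1 had a log2 fold change of −0.03 (edgeR SE 0.118; adjusted p = 0.866) and Neurl1b −0.31 (edgeR SE 0.432; adjusted p = 0.608). Of 8 genes for receptor turnover, 1 was lower. This was Dtx3, at −0.39 (edgeR SE 0.0702; adjusted p = 0.00227). Numb, an inhibitor of Notch, had a log2 fold change of 0.06 and was not called. Nedd4, the most abundant of this list per length, had 1561 CPM in lone replicate 1 and 882 to 1056 CPM in the other libraries (edgeR log2 ratio −0.19 with SE 0.194; adjusted p = 0.479, and 0.12 without lone replicate 1).

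Of 8 other HES, HEY and target genes 2 were tested and none was called, and of the other ligands 1 of 5 was tested and was lower. Hes7 had 22, 26 and 25 counts alone and 9, 14 and 18 counts with Th17, without overlap in CPM but just short of the threshold (edgeR log2 ratio −0.90 with SE 0.318; adjusted p = 0.0526). Without cocultured replicate 3 its log2 fold change was −1.14 (adjusted p = 0.0357). Hes6 had a log2 fold change of −0.21 (edgeR SE 0.121; adjusted p = 0.2). Dlk1, a ligand-like protein that lacks the usual receptor-binding domain, had 16, 12 and 13 counts alone and 5, 7 and 5 counts with Th17 (edgeR log2 ratio −1.32 with SE 0.371; adjusted p = 0.0206). That call rested on few counts and was lost under 9 of 16 alternatives, among them the fits without lone replicate 1 (adjusted p = 0.0728), lone replicate 3 (0.0655), cocultured replicate 1 (0.0662) and cocultured replicate 3 (0.0547).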

How the data were processed

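Per the labels, the authors cleaned the reads using Seqtk, mapped them to mm10 (GRCm38) by HISAT2 2.0.4 and counted fragments per gene with StringTie 1.3.3b. The deposited table holds raw fragment counts and, beside each count, an FPKM value that the authors scaled to gene length and library total. How strand and multi-mapping fragments were treated is not given in the sources used here. Samples were grouped by their titles, and columns were assigned by the column names in the descriptions. Of the gene identifiers, 34267 occur in GENCODE M21 and 99.9% of these overlap their annotated position.

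The count test ran in edgeR 4.0.16 under R 4.3.3: filterByExpr (minimum count 10), TMM, glmQLFit and glmQLFTest, with Benjamini-Hochberg adjustment over 13088 genes. The common dispersion was 0.0136, a coefficient of variation of 11.6%. SE is the size of the log2 fold change divided by the square root of F. The floor of 3 counts covers counting error only. Alternatives used DESeq2 1.42.0, limma 3.58.1, other scalings and filters, a replicate block and left-out libraries. GC content and length offsets (20 bins each) were alternatives chosen after seeing the data. The fits were checked on simulated counts. Changes were planted only in genes with a mean of at least 20 counts, and every gene had the common dispersion. In these simulated counts edgeR recovered 96% of planted log2 changes of 1 and 42% of those of 0.5, and it called 13 unchanged genes. A change of the smaller size can therefore go uncalled. These rates do not cover genes with fewer counts or a wider spread between libraries.

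The genes and lists were chosen with earlier results of these data known. The other pathway genes named are those past an adjusted p of 0.05 and a fold change of 2, the most extreme and the most abundant gene per length of each list, and Rbpj. Ncstn, Rfng, Maml1, Maml2, Maml3, Spen, Tle1, Tle3, Tle4, Ep300, Adam10, Psen2, Numb, Mfng and the untested genes in the closing section were named after their values were seen. Where a symbol occurred on several rows, the row with most counts was used. A few genes of the lists are not reported here by name. Proteins were not analysed here. Python 3.11.15, pandas 2.3.3 and matplotlib 3.10.9 were used.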

Additional observations from a re-analysis of the deposited data

How the results depend on the processing

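Notch2, Notch3, Notch4, Jag1 and Hes1 kept their direction and call under the 17 alternatives, and Dll1 was not called in any of them. Log2 fold changes ranged from 0.32 to 0.42 for Notch2, −0.82 to −0.39 for Notch3, −1.18 to −0.34 for Notch4, −0.83 to −0.65 for Jag1 and −1.14 to −0.68 for Hes1. The values nearest 0 for Notch3 and Notch4 came from limma on log2(FPKM + 1), whose pseudocount shrinks changes of genes with low FPKM by construction. Notch1 lost its call there (−0.25, adjusted p = 0.053), in limma on log2(FPKM + 0.1) (−0.58, 0.061) and in 4 of the 6 fits that left out 1 library, with values from −1.0 to −0.56 over those 6. With a fold change above 2 also required, 1524 genes were called in place of 4856, and the Notch genes called were 0 higher and 1 lower. Other pathway genes called higher numbered 7, and 13 with library size only and 11 in limma on log2(FPKM + 1). Leaving out 1 library gave 3935 to 5088 genes called, 1 Notch gene higher and 4 to 5 lower, and 6 to 10 pathway genes higher and 5 to 7 lower. Values that changed sign belonged to genes not called: Mib1 was 0.03 with library size only, 0.03 and 0.04 in limma with pseudocounts of 1 and 0.1, and −0.13 to 0.08 with a library left out. The left-out ranges were −0.65 to 0.15 for Neurl1b, −0.34 to 0.12 for Nedd4 and −0.01 to 0.10 for Snw1. The offsets for GC content and length gave the same 1 higher and 5 lower Notch genes in number.

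The groups share replicate numbers, and whether these mark paired libraries is not given in the sources used here. Deviations from the group means correlated across genes at 0.0157, −0.0256 and −0.0036 for libraries of the same number. For libraries of different numbers the values were −0.0398 to 0.0458, so the numbers showed no shared deviation. With the replicate block 4513 genes were called, with 1 Notch gene higher and 5 lower and 8 pathway genes higher and 5 lower. Depth limits Jag2, Hey1 and Heyl.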

Other observations

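Pathway genes with too few counts to test are given as counts. Hey2, a HEY repressor, was at 12, 18 and 7 counts alone and at 3, 6 and 5 counts with Th17, with no overlap between the groups. Dtx1, a Deltex gene induced by Notch in lymphocytes, had 14, 8 and 7 counts alone and 6, 5 and 0 counts with Th17. Dner, a neuronal Notch ligand, had 7, 0 and 5 counts alone and 13, 11 and 6 counts with Th17.

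The ligands Dll3 and Dll4 and the target Nrarp had between 0 and 3 counts in each library. Hes2, Hes3, Hes5 and Mfng had 0 counts in all 6 libraries, which allows a level of up to 0.223 to 0.254 CPM per library.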
